A study of Mus musculus with 12 samples.

Results

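The simple epithelial keratins examined here were Krt8, Krt7 and Krt80 of type II and Krt18, Krt19, Krt20 and Krt23 of type I, 7 of the 55401 genes in the deposited expression table. The family was chosen from earlier results of these same libraries, in which some of its members differed between the treatment groups, so their levels across those groups are given as a description. The RNA came from 12 samples that the labels call oral tumor tissue grown at its site of origin in C57BL/6 mice, 3 libraries per group. Per the labels and the study, every mouse carried a graft of MTC-Q1, an oral cancer cell line of this species, of which the study used a luciferase-expressing subline placed in the cheek lining, and treatment began at a tumor size of 100 mm3. The groups were control IgG (Ctrl-IgG), an antibody that blocks the macrophage growth factor receptor CSF1R (aCSF1R), interleukin-10 carried on an Fc fragment (IL-10-Fc), and BF10, in which human interleukin-10 is fused to the heavy chain of the CSF1R antibody. The antibodies and fusion proteins were given into the abdominal cavity, in 6 doses per the treatment protocol of the labels and in 4 per the series design. No gene was altered in any group, and the labels give no age and no sex. Values are FPKM, that is, fragment counts scaled by transcript length and by the size of the library, so levels can be compared between genes. Their sum over all genes differed between libraries, from 637596 to 976950, so differences between libraries also depend on the scaling.

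Keratins are the intermediate filament proteins of epithelial cells, and a filament always pairs a type I with a type II chain. Krt8 and Krt18 are the pair that appears first in development and that single-layered (simple) epithelia keep, with Krt7 and Krt19 added in ducts and other lining epithelia and Krt20 in the gut and bladder. Stratified squamous epithelium, the lining of the mouth, instead builds its filaments from Krt5 and Krt14 in the basal layer and from pairs such as Krt4 and Krt13 or Krt1 and Krt10 above it. Carcinomas of squamous origin can carry chains of both kinds. In bulk tissue, fewer keratin-expressing cells and less keratin RNA per cell cannot be told apart.

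The 12 libraries fell into 2 sides that differed in sex-linked and MHC transcripts, and this bears on every comparison of the members. Xist, the RNA that coats the silent X chromosome in female cells, was at most 0.04 FPKM in the 6 libraries labelled Ctrl-IgG or aCSF1R and 17.09 to 30.68 FPKM in the 6 labelled IL-10-Fc or BF10. The Y-linked gene Eif2s3y was 4.23 to 11.33 FPKM on the first side. On the second it was listed at 0 in 4 libraries and was 0.05 and 3.29 FPKM in the libraries labelled BF10 replicates 1 and 3. The MHC class II gene H2-Ea, which the labelled strain C57BL/6 is known not to transcribe, was at most 0.27 FPKM on the first side and 552.8 to 1727 FPKM on the second. These values go against 1 strain and 1 sex for all 12 libraries. The files do not settle whether every library matches its labelled strain and cell line, so the groups are named by their labels throughout. A treatment effect across the sides therefore cannot be told apart from a possible difference in sex, strain or cell line between them. By contrast, aCSF1R against Ctrl-IgG and BF10 against IL-10-Fc stay within a side. Within the first side, 3 libraries (Ctrl-IgG replicate 3 and aCSF1R replicates 1 and 2) held Krt5 above 10 FPKM and much muscle RNA, and the other 3 did not. Within the second side, replicates 1 and 2 of IL-10-Fc together with replicate 1 of BF10 had higher FPKM sums (at least 855961, against at most 671528) and a higher mitochondrial share (6.57% to 9.04% against 2.99% to 3.12%). These 3 carry a first number of 1 to 4 in the code of their titles, and the other 3 a number of 5 to 7, a code whose meaning the labels do not give.

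Promoter sequences are shown for the 3 members with the highest levels, and of all pairs of members Krt8 and Krt18 were the most alike across the libraries. The windows are the bases just before the RefSeq start of each gene (GRCm38.p6), cut back where the GENCODE M21 annotation already places a 5′ untranslated region. They are chr15:102004483-102004592 on the minus strand for Krt8 (110 bases), chr15:102027966-102028179 on the plus strand for Krt18 (214 bases) and chr15:101412153-101412401 on the plus strand for Krt7 (249 bases). The GENCODE M21 annotation starts Krt7 at 101411043, so the Krt7 window lies within the gene as annotated there. Capitals mark exact matches, on either strand, to 5 letter patterns. The TATA box was searched as TATAAA. The GC box was searched as GGGCGG. The E-box form that the Snail and Zeb repressors bind was searched as CACCTG. The AP-1 site was searched as TGANTCA and the Grainyhead site as AACCGGTT.
Krt8: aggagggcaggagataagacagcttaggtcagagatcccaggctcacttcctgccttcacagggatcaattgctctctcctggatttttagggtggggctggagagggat
Krt18: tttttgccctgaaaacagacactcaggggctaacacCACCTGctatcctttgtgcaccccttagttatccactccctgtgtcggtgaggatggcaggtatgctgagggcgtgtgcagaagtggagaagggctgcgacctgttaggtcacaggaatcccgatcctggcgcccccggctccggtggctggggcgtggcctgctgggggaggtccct
Krt7: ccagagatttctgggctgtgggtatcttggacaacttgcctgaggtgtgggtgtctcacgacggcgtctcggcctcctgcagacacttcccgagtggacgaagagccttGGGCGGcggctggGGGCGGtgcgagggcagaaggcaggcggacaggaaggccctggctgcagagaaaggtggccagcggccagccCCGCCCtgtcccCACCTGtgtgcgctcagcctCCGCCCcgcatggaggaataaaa
RefSeq windows were given for 5 of the 7 members, all but Krt19 and Krt80. Over the full 250 bases, CACCTG occurred once each in Krt8 (111 bases before the start, in the stretch not printed), Krt18 (214), Krt7 (44) and Krt23 (232). The same letters occurred in 17.2% of the 32851 windows of this length in the table. Krt7 alone of the 5 held GC boxes, 4 of them, where 32.7% of all windows held at least 1. A TATA box was found in the Krt20 window only, 29 bases before the start, against 12.4% of all windows. Neither the AP-1 pattern (6.75% of windows) nor the Grainyhead pattern (0.116%) occurred in any of the 5, and no matches of different patterns overlapped in the printed sequences.

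Krt8, the type II chain of the primary pair (ENSMUSG00000049382, GRCm38 chromosome 15, 101996698 to 102004482), was near the bottom of the scale on one side of the data and among the most abundant RNAs on the other. It was 0.11, 0.16 and 0.28 FPKM in Ctrl-IgG replicates 1 to 3 and 0.06, 0.13 and 0.17 FPKM in aCSF1R. IL-10-Fc replicates 1 to 3 had 203.0, 168.9 and 575.2 FPKM, and those of BF10 had 348.1, 617.8 and 478.8 FPKM. The lowest IL-10-Fc or BF10 library was 603.1 times the highest of the other 6. In these 6 libraries Krt8 ranked between 155 and 672 among all genes. Part of its signal is uncertain, because the processed pseudogene Krt8-ps on chromosome 7 was listed at 6.28 to 26.8 FPKM in the same 6 libraries and at most 0.05 FPKM elsewhere, and reads of near-identical copies can be split between them.

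Krt18, the type I partner of Krt8 (ENSMUSG00000023043, chromosome 15, 102028180 to 102032027), lies 23.7 kb from it, outside the type I cluster that holds the other type I members. It was 0.09, 0 and 0.05 FPKM in Ctrl-IgG and 0.08, 0.08 and 0 FPKM in aCSF1R. The IL-10-Fc libraries had 309.9, 293.6 and 594.6 FPKM, and the BF10 libraries 450.2, 614.0 and 464.5 FPKM. The gap between the sides was wider than for any other member, the lowest of the 6 high libraries being 3262 times the highest of the 6 low ones. Krt8 and Krt18 together made up 78.9% to 84.7% of the summed FPKM of the 7 members in IL-10-Fc and BF10 libraries.

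Krt7, a type II chain of ducts and other lining epithelia (ENSMUSG00000023039, chromosome 15, 101411043 to 101430313), followed the same pattern at a lower level. It was 0.13, 0.04 and 0.25 FPKM in Ctrl-IgG and 0.06, 0.07 and 0.04 FPKM in aCSF1R. The IL-10-Fc libraries had 121.1, 87.5 and 175.2 FPKM, and the BF10 libraries 137.9, 230.2 and 147.2 FPKM. Krt19, the smallest keratin and a type I chain found in ducts (ENSMUSG00000020911, chromosome 11, 100140810 to 100148665), was lower again. On the first side it did not exceed 0.19 FPKM. The IL-10-Fc libraries had 15.1, 9.94 and 31.3 FPKM of it, and the BF10 libraries 27.9, 47.5 and 24.9 FPKM. The lowest of the 6 high libraries exceeded the highest of the others 349.9-fold for Krt7 and 52.3-fold for Krt19. An antisense gene within Krt7, Gm671, was at most 0.05 FPKM on the low side and 0.78 to 1.83 FPKM on the high side, and Gm36026, which overlaps Krt8 on the other strand, was listed at 0 and was 0.45 to 0.97 FPKM, respectively.

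**Figure D1:**
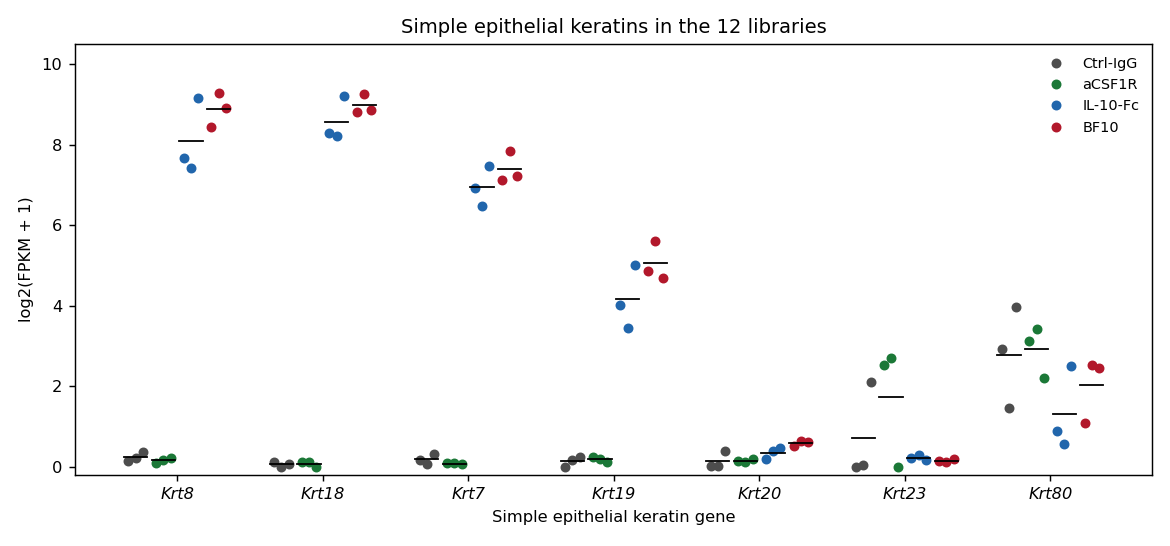
Levels of the 7 simple epithelial keratins on a log2(FPKM + 1) axis, 1 point per library and a line at the group mean (n = 3). Krt8, Krt18, Krt7 and Krt19 sit near 0 in every Ctrl-IgG and every aCSF1R library. They lie between 9.94 and 617.8 FPKM in every IL-10-Fc or BF10 library. The ranges of Krt20, Krt23 and Krt80 overlap between these sets of libraries.

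The other 3 members did not show the gap between the sides that these 4 had. Krt20, a type I chain of intestinal and bladder epithelium (ENSMUSG00000035775, chromosome 11, 99428403 to 99438150), was below 1 FPKM in every library, so it did not enter the tests. Its highest value was 0.31 FPKM on the first side and 0.55 FPKM on the second, with medians of 0.095 and 0.405 FPKM. Its BF10 values (0.42 to 0.55 FPKM) lay above all those of the first side, and its IL-10-Fc values overlapped them. Krt23, a type I chain (ENSMUSG00000006777, chromosome 11, 99477974 to 99493137), was 3.31 FPKM in Ctrl-IgG replicate 3 and 4.77 and 5.51 FPKM in aCSF1R replicates 1 and 2. These are the 3 libraries with stratified keratin RNA, and Krt23 was at most 0.22 FPKM in each of the other 9. Krt80, a type II chain (ENSMUSG00000037185, chromosome 15, 101347444 to 101370162), was detected everywhere. Its levels were 6.54, 1.73 and 14.7 FPKM in Ctrl-IgG replicates 1 to 3, and 7.64, 9.77 and 3.62 FPKM in those of aCSF1R. They were 0.84, 0.48 and 4.64 FPKM with IL-10-Fc, and 1.13, 4.77 and 4.51 FPKM with BF10. The 4 groups overlapped in Krt80, and its highest value stood beside stratified keratin RNA in Ctrl-IgG replicate 3.

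On the log2(FPKM + 1) scale, the 4 members with a gap between the sides are given for each of the 3 contrasts that cross them. BF10 minus Ctrl-IgG was 8.64 (SE 0.40) for Krt8, 8.92 (0.27) for Krt18, 7.21 (0.28) for Krt7 and 4.91 (0.37) for Krt19, with a median of -0.12 over the 15813 genes tested. IL-10-Fc minus Ctrl-IgG was 7.84, 8.50, 6.77 and 4.02 in the same order, and BF10 minus aCSF1R was 8.71, 8.91, 7.31 and 4.86. The first 2 of these share their Ctrl-IgG libraries, and BF10 enters the first and the third. For Krt23 and Krt80, BF10 minus Ctrl-IgG was -0.57 (SE 0.69) and -0.75 (0.70). Without Ctrl-IgG replicate 3 the Krt23 value was 0.13, and the Krt80 value was -0.15. Members were chosen on these contrasts, and no test of them is given.

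Set beside the rest of the keratin family, the RNA of the IL-10-Fc and BF10 libraries was almost wholly of the simple kind. The deposited table holds 53 keratin genes, 26 on chromosome 15 and 27 on chromosome 11. The 7 simple keratins summed to 560.9 to 1515 FPKM on the second side, which was 95.0% to 98.4% of all keratin FPKM there, and to 2.1 to 19.1 FPKM on the first. Only 6 of the 53 keratin genes were at 1 FPKM or more in all 6 IL-10-Fc and BF10 libraries, and they were Krt8, Krt18, Krt7, Krt19, the basal chain Krt14 (12.2 to 31.7 FPKM) and the suprabasal chain Krt10 (3.05 to 6.35 FPKM). Krt5, the usual partner of Krt14, was at most 2.38 FPKM in them.

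The Ctrl-IgG and aCSF1R libraries differed among themselves chiefly in their stratified keratins. The 16 stratified keratins summed to 1762 to 2778 FPKM in Ctrl-IgG replicate 3 and aCSF1R replicates 1 and 2, and to 5.98 to 6.53 FPKM in the other 3. The simple sum also separated them, at 12.9 to 19.1 FPKM against 2.1 to 6.89 FPKM, with Krt23 and Krt80 the members above 1 FPKM. In these last 3 libraries the keratin genes that reached 1 FPKM were Krt10 (1.82 to 4.59 FPKM), Krt16 (1.33 to 3.06 FPKM) and Krt80 (1.73 to 6.54 FPKM). Samples labelled as tumors of an oral cancer line thus held next to no keratin RNA of either kind in 3 of 12 libraries. Vim, the intermediate filament of mesenchymal cells, was abundant throughout, at 889.0 to 1363 FPKM on the first side and 1078 to 3572 FPKM on the second.

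**Figure D2:**
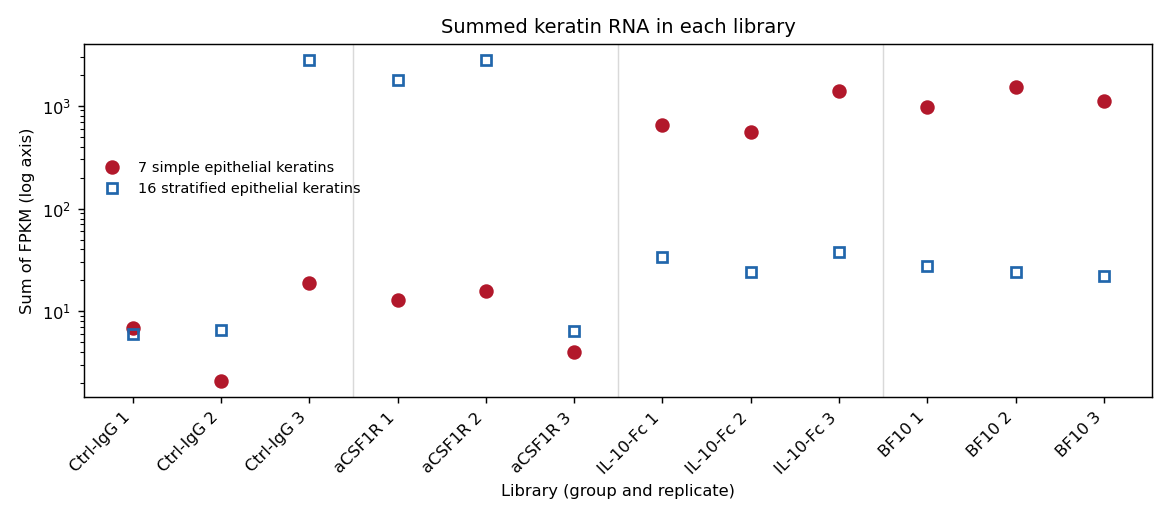
Summed FPKM of the 7 simple (filled circles) and 16 stratified (open squares) keratins in each library, on a log axis. The simple sum is 560.9 to 1515 FPKM in every IL-10-Fc or BF10 library. Among the 6 Ctrl-IgG or aCSF1R libraries the stratified sum is 1762 to 2778 FPKM in 3 and 5.98 to 6.53 FPKM in 3.

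Position in the keratin clusters did not set the simple members apart as a block. On chromosome 15, Krt8 and Krt18 stand together at one end of the type II cluster, and Krt7 and Krt80 stand together at the other. Krt7 and its neighbor Krt80 had unlike patterns all the same, since Krt80 overlapped between the sides. On chromosome 11, Krt19 lies between Krt15, which was at most 0.29 FPKM in IL-10-Fc and BF10 libraries, and Krt9, which was listed at 0 there.

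**Figure D3:**
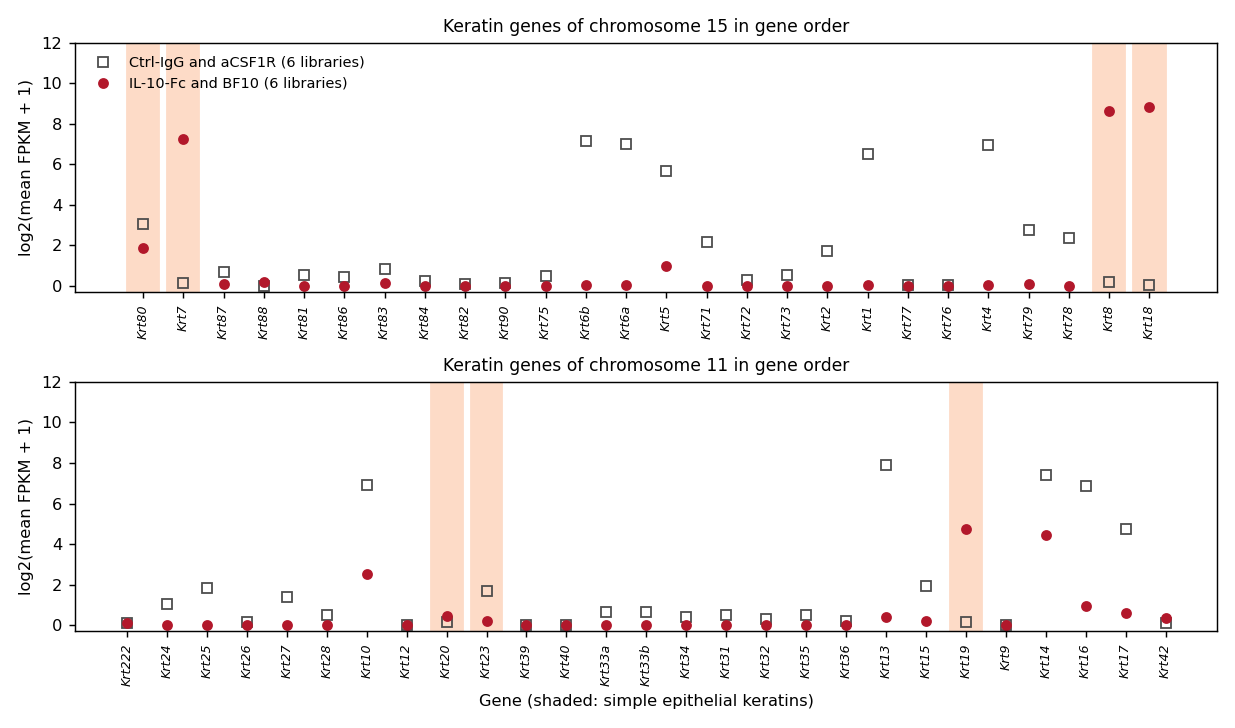
Mean level of the 53 keratin genes in gene order along chromosome 15 (top) and chromosome 11 (bottom), as log2(mean FPKM + 1), with open squares for the 6 libraries labelled Ctrl-IgG or aCSF1R and circles for the 6 labelled IL-10-Fc or BF10. Shading marks the 7 simple keratins, and the high circles stand at Krt7, Krt8, Krt18 and Krt19, with Krt14 the next.

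The comparison of aCSF1R with Ctrl-IgG asks what blockade of CSF1R alone does, and it lies within 1 side of the data. None of the 6 members tested passed the test (0 of 6 called by limma, adjusted p 0.959 to 1), and 0% of all tested genes were called, with 437 at an unadjusted p under 0.05. The ranges of the 2 groups overlapped for each of the 6, whereas they did not overlap in 14.9% of all genes. Krt8, Krt18, Krt7 and Krt19 entered the tests only through IL-10-Fc and BF10 libraries, so neither count says anything about them. The largest difference was that of Krt23, 1.03 (SE 0.69) on the log2 scale, and Krt80 differed by 0.14 (SE 0.70). The Krt23 value was -0.02 without the 3 libraries that held stratified keratin RNA. The remaining 4 members were at most 0.28 FPKM in all these libraries, so a difference between them was not detectable at these levels.

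The comparison of BF10 with IL-10-Fc asks what the CSF1R antibody part adds to interleukin-10, and here Krt8, Krt18, Krt7 and Krt19 were abundant. Krt80 was 0.48 to 4.77 FPKM in these libraries, and Krt23 was at most 0.22 FPKM. Krt23 entered the tests only through Ctrl-IgG and aCSF1R libraries, so a difference in it was not detectable here. The means of Krt8, Krt18, Krt7, Krt19 and Krt80 were higher in BF10, but none of the 6 tested members passed the test (0 of 6 called). Krt19 was 33.4 ± 12.3 FPKM in BF10 and 18.8 ± 11.2 FPKM in IL-10-Fc (SD, n = 3), and its log2 difference was 0.89 (SE 0.37, limma unadjusted p 0.0355, adjusted p 0.478). Krt8 was 481.6 ± 134.9 FPKM in BF10 and 315.7 ± 225.4 FPKM in IL-10-Fc, a log2 difference of 0.79 (SE 0.40, limma adjusted p 0.478). Krt18, Krt7, Krt80 and Krt23 differed by 0.41 (SE 0.27), 0.44 (0.28), 0.71 (0.70) and -0.08 (0.69).

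These values have to be read against all genes, because BF10 libraries read higher in general. The median log2 difference was 0.58 over the 6 members and 0.34 over all tested genes, and once size factors by median of ratios had brought the median of all genes to 0.03, the differences of Krt18 and Krt7 were -0.03 and -0.0018. Those of Krt8 and Krt19 were above 0 in all 22 alternatives, down to 0.24 and 0.47. Of all tested genes, 0.0126% were called (2 genes), and the unadjusted p was under 0.05 for 828. The groups did not overlap in 5.18% of all genes and in 0 of the 6 tested members, of which Krt23 was at most 0.22 FPKM in both groups. Krt20, which was not tested, had 0.14, 0.31 and 0.39 FPKM in the IL-10-Fc libraries and 0.42, 0.55 and 0.52 FPKM in those of BF10, without overlap. IL-10-Fc replicate 3 had the highest Krt8, Krt18, Krt7 and Krt19 of its group, and without it the Krt8 difference was 1.34 (limma adjusted p 0.0504). Without IL-10-Fc replicate 2, the lowest of the group, it was 0.45. Over all single libraries left out, the difference ranged from 0.23 to 0.74 for Krt18, from 0.20 to 0.69 for Krt7, from 0.54 to 1.32 for Krt19 and from 0.34 to 1.3 for Krt80.

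**Figure D4:**
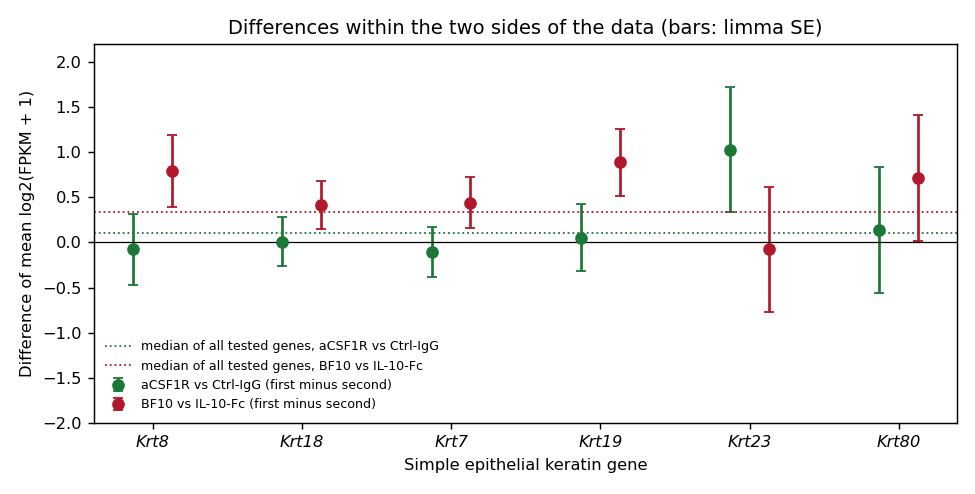
Difference of the group means on the log2(FPKM + 1) scale with its limma standard error for the 6 tested members, for aCSF1R minus Ctrl-IgG and for BF10 minus IL-10-Fc. Dotted lines mark the median over all tested genes, 0.11 and 0.34. No member was called in either comparison.

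Within IL-10-Fc and BF10, several members differed more by title code than by treatment, as did genes at large. The 3 libraries with codes 5 to 7 had higher levels than the 3 with codes 1 to 4 and did not overlap with them for Krt8 (478.8 to 617.8 against 168.9 to 348.1 FPKM), Krt18, Krt7 and Krt80 (4.51 to 4.77 against 0.48 to 1.13 FPKM). These were 4 of the 6 tested members, and 51.7% of all tested genes were likewise higher in every high-code library than in every low-code one, so the count says nothing particular to the keratins. The log2 difference between the codes was 1.27 for Krt8, 0.68 for Krt18, 0.67 for Krt7, 1.65 for Krt80 and 1.00 for Krt19, whose ranges overlapped, beside a median of 0.51 over all tested genes. IL-10-Fc has 2 libraries with low codes and 1 with a high code, and BF10 has the reverse. Among high codes, BF10 minus IL-10-Fc was -0.08 for Krt8, -0.15 for Krt18, 0.07 for Krt7, 0.13 for Krt19 and 0.00 for Krt80. Among low codes it was 0.91, 0.58, 0.42, 1.12 and 0.37, from 1 BF10 library and 2 IL-10-Fc libraries. The difference between BF10 and IL-10-Fc was thus seen among the low codes and not among the high ones for Krt8 and Krt18, a contrast that was not tested. The low-code libraries are those with the higher mitochondrial share given above, and the part of that share in the result was not tested.

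The proportions of the chains were compared next, because a ratio within a library does not depend on its scaling. Krt8 over Krt18, the ratio of the primary pair, was 0.655, 0.575 and 0.967 in IL-10-Fc replicates 1 to 3 and 0.773, 1.01 and 1.03 in BF10. The mean ratio was 0.937 ± 0.142 with BF10 and 0.733 ± 0.207 with IL-10-Fc (SD, n = 3), a difference that did not pass a two-sided exact permutation test (p = 0.2, adjusted 0.4 over 4 ratios). With 3 libraries against 3 such a test cannot go below 0.1. By title code, the same ratio was 0.575 to 0.773 for low codes and 0.967 to 1.03 for high codes. Krt7 over Krt18 varied least, from 0.295 to 0.391 or 1.33-fold over the 6 libraries (exact permutation p = 0.8 between the groups). Krt7 over Krt8 ran from 0.305 to 0.596 (exact permutation p = 0.4). Krt19 over Krt18 ranged widest, 2.29-fold. It was 0.0488, 0.0339 and 0.0527 with IL-10-Fc, against 0.0619, 0.0774 and 0.0537 with BF10. The 2 groups did not overlap in this last ratio (exact permutation p = 0.1, the smallest possible, adjusted 0.4).

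**Figure D5:**
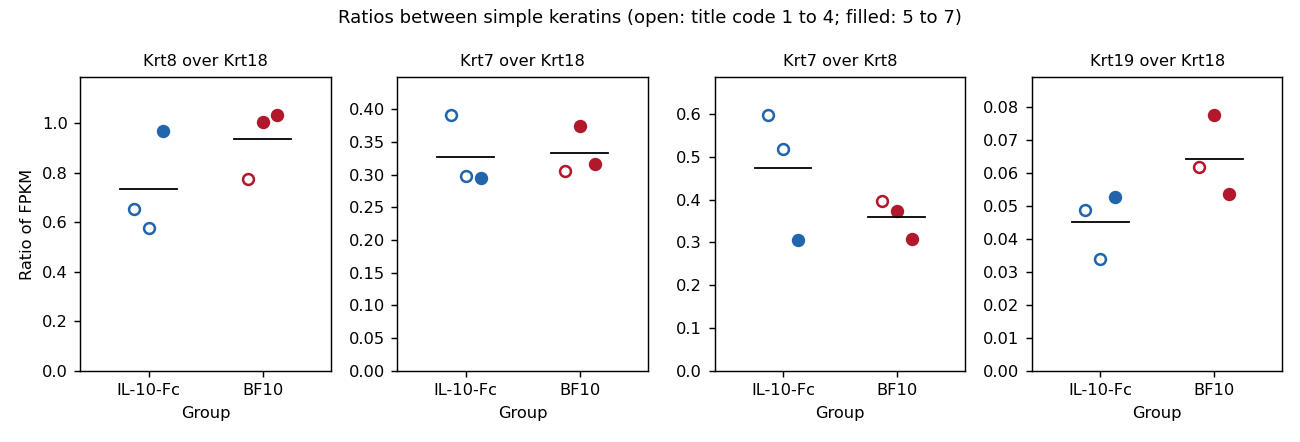
Ratios of FPKM between simple keratins in each IL-10-Fc and BF10 library, with a line at the group mean (n = 3). Open points are libraries with title codes 1 to 4 and filled points those with 5 to 7. In Krt8 over Krt18 the filled points (0.967 to 1.03) lie above the open ones (0.575 to 0.773) in both groups.

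Genes that build or anchor keratin filaments and genes of epithelial junctions were compared next, over all 5 contrasts and by lists chosen with earlier results known. No gene of these 7 lists was called in aCSF1R against Ctrl-IgG or in BF10 against IL-10-Fc. With all libraries, the epithelial junction genes gave the most calls across the sides. In BF10 against Ctrl-IgG, 8 of 14 tested were higher and 1 was lower, where 11.8% of all genes were called higher and 13.2% lower, and the list median was 1.3 against -0.12 for all genes. In IL-10-Fc against Ctrl-IgG the junction counts were 4 and 1 (10.1% and 23.6% of all genes), and in BF10 against aCSF1R 5 and 1 (11.0% and 14.0%). In BF10 against Ctrl-IgG, the junction calls fell from 9 to 5 without Ctrl-IgG replicate 1 or 2 or BF10 replicate 2 or 3. They also numbered 5 without the 3 libraries with stratified keratin RNA, where the desmosome and filament linker genes gave more (10). Treatment cannot be told apart from the sides in any of these.

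Epcam, an adhesion molecule of simple epithelia and carcinomas, was the junction gene with the largest difference. It was 0.38, 0.21 and 3.26 FPKM in Ctrl-IgG and 0.97, 1.19 and 0.4 FPKM with aCSF1R. The IL-10-Fc libraries had 37.2, 33.0 and 44.4 FPKM, and the BF10 libraries 38.1, 34.5 and 29.9 FPKM. The log2 difference of BF10 from Ctrl-IgG was 4.19 (SE 0.42, limma adjusted p 8.03e-05). The tight junction protein Cldn4 had a mean of 25.7 ± 5.94 FPKM in BF10 against 1.10 ± 1.84 FPKM in Ctrl-IgG (log2 difference 3.99, SE 0.61, limma adjusted p 0.000901). E-cadherin (Cdh1) was 6.67, 33.3 and 27.2 FPKM in BF10 and 0.92, 0.37 and 5.08 FPKM in Ctrl-IgG (log2 difference 2.95, SE 0.86, limma adjusted p 0.028). Its call was lost in 6 of 22 alternatives. The member that went the other way was Cdh2, the N-cadherin of mesenchymal and neural cells, at -1.55 (SE 0.27). Tjp1, the junction gene with the highest mean, was 26.0 to 28.4 FPKM in Ctrl-IgG and aCSF1R and 16.8 to 34.9 FPKM in the others.

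Among desmosome and filament linker genes, which tie keratin filaments to the cell surface, 3 of 14 tested were higher in BF10 than in Ctrl-IgG and none was lower, against 11.8% and 13.2% of all genes. This count depended on the libraries, with 5 genes called without Ctrl-IgG replicate 3 and 10 without the 3 libraries that held stratified keratin RNA. It was also 5 under median-of-ratios or quantile scaling. The plakophilin Pkp2 was 7.88 ± 1.11 FPKM in BF10 and 0.38 ± 0.235 FPKM in Ctrl-IgG (log2 difference 2.69, SE 0.27, limma adjusted p 8.31e-05). The desmoglein Dsg2, the form found in simple epithelia, was at most 0.35 FPKM in Ctrl-IgG and aCSF1R and 0.83 to 2.7 FPKM in the others (log2 difference 1.28, SE 0.29). Pkp3 was higher by 2.5 (SE 0.81), a call kept in 10 of 22 alternatives. The counts were 2 higher and 0 lower in IL-10-Fc against Ctrl-IgG, and 2 and 1 in BF10 against aCSF1R, in which Dsc2 was the lower one. The Dsc2 call was kept in 10 of 21 alternatives, over which its log2 difference ranged from -3.43 to -0.36.

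No stratified keratin was called by limma in any contrast with all libraries (0 of 13 tested), although their median difference was -1.79 in BF10 against Ctrl-IgG. The 3 libraries that hold them are 1 of Ctrl-IgG and 2 of aCSF1R. Without these 3, 2 stratified keratins were called in BF10 against Ctrl-IgG and 1 in IL-10-Fc against Ctrl-IgG. In Ctrl-IgG replicates 1 and 2, which remain, Krt14 was below 1 FPKM, against 12.2 to 31.7 FPKM in IL-10-Fc and BF10 libraries. These calls therefore need not be lower values. In BF10 against aCSF1R the median difference was -3.11 with all libraries. There, 8 were called without Ctrl-IgG replicate 3 and also 8 without aCSF1R replicate 3. Of the other intermediate filaments, 1 of 8 was higher in BF10 than in Ctrl-IgG and 1 lower, shares near those of all genes (11.8% and 13.2%), namely the nuclear lamin Lmna (392.8 ± 37.3 against 150.0 ± 68.5 FPKM) and peripherin Prph (0.20 ± 0.138 against 1.88 ± 1.08 FPKM). The call of Lmna was kept in 17 of 22 alternatives and that of Prph in 19 of 21, and neither was called without the 3 libraries with stratified keratin RNA. Vim did not pass in BF10 against Ctrl-IgG, and it was called higher in BF10 than in aCSF1R (log2 difference 1.34, SE 0.41, limma adjusted p 0.036), a call kept in 13 of 22 alternatives and lost without any 1 of the aCSF1R libraries.

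The epithelial regulators did not move as a block. Of 11 tested, Gata3 and the Grainyhead factor Grhl2 were higher and Ovol2 was lower in BF10 than in Ctrl-IgG. Of all genes, 11.8% were called higher and 13.2% lower there. The same counts, 2 higher and 1 lower, held in the other 2 contrasts across the sides. The shares of all genes were 10.1% and 23.6% in IL-10-Fc against Ctrl-IgG, and 11.0% and 14.0% in BF10 against aCSF1R. Counts this small were not tested against those shares. Grhl2 was 4.10, 6.19 and 5.32 FPKM in BF10 and 0.30, 0.09 and 0.83 FPKM in Ctrl-IgG (log2 difference 2.16, SE 0.32, limma adjusted p 0.000783). Gata3, a factor of luminal and urothelial epithelium, was 0.88 to 3.27 FPKM in Ctrl-IgG and aCSF1R and 8.91 to 28.8 FPKM in the others. Ovol2, a repressor that guards the epithelial state, was 6.54 to 16.2 FPKM in Ctrl-IgG and aCSF1R and 0.29 to 2.81 FPKM in the others (log2 difference -2.33, SE 0.38, limma adjusted p 0.00142). Of 7 mesenchymal regulators, 1 was lower in BF10 than in Ctrl-IgG, a share near the 13.2% of all genes. It was Twist2 (log2 difference -1.19, SE 0.35), and its call was kept in 16 of 22 alternatives. Snai1, whose protein binds the CACCTG letters shown above, was 9.63 to 51.6 FPKM in Ctrl-IgG and aCSF1R and 7.91 to 20.3 FPKM in the others. It was called lower in BF10 against aCSF1R (log2 difference -1.49, SE 0.47, limma adjusted p 0.0398), in 12 of 22 alternatives.

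Of 10 genes for keratin turnover and binding, 2 were lower in BF10 than in Ctrl-IgG and none was higher, against 13.2% and 11.8% of all genes. The count was 1 without Ctrl-IgG replicate 1 or 2 or BF10 replicate 2 or 3. Sqstm1, the p62 protein that collects keratin aggregates, was 842.7, 508.4 and 672.9 FPKM in Ctrl-IgG and 918.5, 847.4 and 899.8 FPKM with aCSF1R. The IL-10-Fc libraries had 138.9, 133.3 and 255.4 FPKM, and the BF10 libraries 233.8, 226.4 and 354.1 FPKM. The groups of the 2 sides did not overlap, and BF10 was lower than Ctrl-IgG by a log2 difference of -1.31 (SE 0.30, limma adjusted p 0.00841). The antibody-binding ubiquitin ligase Trim21 differed by -0.66 (SE 0.18), with the call lost in 9 of 22 alternatives.

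Markers of tissues that carry simple keratins, or that a mouth sample could hold, were summed beside these results. The sum of the 8 mammary luminal markers was 10.7 to 17.2 FPKM in Ctrl-IgG and aCSF1R and 30.7 to 57.3 FPKM in the others, with Wap listed at 0 throughout. Of these 8, only 3 reached 1 FPKM in all 6 libraries of the second side, and 2 in all 6 of the first. In BF10 against Ctrl-IgG, Ltf (3.88) and Areg (1.62) were called higher out of 4 tested, by their log2 differences, and the milk protein gene Csn3 differed by -0.28 without a call. The 5 fibroblast markers summed to 86.6 to 386.3 FPKM on the first side and 606.5 to 1414 FPKM on the second, and Lum, Col1a1 and Col1a2 were called higher (log2 differences 3.67, 3.50 and 3.10). The 5 mesothelial markers summed to 34.9 to 84.9 FPKM and 33.6 to 150.8 FPKM, respectively, with Upk1b called lower (-2.53). Markers of several other simple epithelia had low sums, although single genes among them were called. The 3 urothelial markers summed to at most 1.55 FPKM and the 5 intestinal markers to at most 6.58 FPKM in any library, with Cdh17 called higher (log2 difference 0.97). Of the 8 salivary gland markers, Prol1, Smgc and Prr27 were listed at 0 in every library, and the sum was at most 8.03 FPKM, with Aqp5 called higher (log2 difference 1.4). The 4 Merkel cell markers summed to 7.25 to 12.8 FPKM on the first side and 1.02 to 4.37 FPKM on the second, with Atoh1 listed at 0, Piezo2 called higher (log2 difference 1.29) and Sox2 called lower (-2.83). No squamous keratinocyte or muscle marker was called in BF10 against Ctrl-IgG. The 15 squamous keratinocyte markers summed to 22.2 to 38.1 FPKM on the second side, where 2 of them reached 1 FPKM in all 6 libraries. The 8 muscle markers summed to 6.82 to 11.7 FPKM there, apart from 108.9 FPKM in BF10 replicate 3, the library with Eif2s3y at 3.29 FPKM. The part of these other cell types in the keratin levels was not tested.

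The genes whose course over the 12 libraries lay closest to each member were found by the root mean square difference of centered log2(FPKM + 1) values, as a description. Krt18 was nearest to Krt8 at 0.32, and Krt7 came next at 0.67. The genes nearest to Krt7 were the vesicle protein Syt8 (0.55) and the MHC class I gene H2-Q2 (0.56), ahead of Krt8, and Wnt7b and Nt5e followed. Krt19 lay nearest to another MHC class I gene, H2-Q1 (0.22), which was at most 0.02 FPKM in Ctrl-IgG and aCSF1R and 9.18 to 39.3 FPKM in the others, followed by Kank3, Prss22, Npnt and Arl4c. The genes nearest to Krt23 were Wfdc5 (0.15), the cornified envelope gene Sprr2e (0.16), Tmprss11a and Defb3, all at most 0.04 FPKM in IL-10-Fc and BF10 libraries. Krt80 lay nearest to Ltbp4 (0.26), Grasp, Mast3, Erich1 and Pacsin3, which were present in every library. These distances share the libraries and their split into 2 sides, so they carry no test.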

How the data were processed

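RNA of 12 tumor samples (3 per group, grouped by the treatment in the labels; replicate numbers only name libraries) was analysed. The authors prepared stranded mRNA libraries, and the submitters' processing notes name STAR 2.7.5a, RSEM 1.3.3 and DESeq2 1.30.0 without roles, with mm10/GRCm38. The authors deposited FPKM values of 55401 genes, rounded to 2 decimals. They also deposited 4 tables of their own comparisons (mean, log2 fold change, standard error, statistic, p-value and adjusted p-value), which were not used. FPKM carry no counts, so depth and the precision of single values are unknown, and a value listed at 0 gives no floor.

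Genes that reached 1 FPKM in 3 libraries or more were kept (15813 genes, with 6 of the 7 members), transformed to log2(FPKM + 1), which understates changes of low genes, and fitted with limma 3.58.1 (eBayes with trend) in R 4.3.3, all 12 libraries in 1 model. Calls needed a Benjamini-Hochberg adjusted p under 0.05 over all tested genes and a fold of at least 1.5. The fit was tested on simulated data. Ratios were compared by exact permutation. Nothing in the labels says whether libraries come from separate animals, so p-values measure the spread between these samples, which may be technical. Identical libraries were looked for and not found (0 pairs).

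Named were all members, for each list the 3 largest differences called in BF10 against Ctrl-IgG and the gene with the highest mean, and the 5 nearest genes of each tested member, without predicted genes and pseudogenes; 1 of these genes is not reported here. Cdh2, Csn3, Dsc2, Gm671, Gm36026 and the keratins Krt4, Krt5, Krt9, Krt10, Krt14, Krt15 and Krt16 were named after their values were seen. The members and lists were chosen with earlier results of these data known. Alternatives were a pseudocount of 0.1, no filter, a mean of at least 5 FPKM, rescaling to TPM, median-of-ratios and quantile scaling, a fit of the 2 groups alone, the FPKM sum or the title code as covariate, and leaving out each library. Leaving out the 3 libraries with Krt5 above 10 FPKM was added after seeing the data. Positions came from GENCODE M21 and promoters from RefSeq.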

Additional observations from a re-analysis of the deposited data

How the results depend on the processing

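No member was called in aCSF1R against Ctrl-IgG or in BF10 against IL-10-Fc under any of the 22 alternatives; the lowest adjusted p was 0.652 (Krt23 without Ctrl-IgG replicate 3) and 0.0504 (Krt8 without IL-10-Fc replicate 3). Several of these uncalled differences changed sign, and the cause was not tested. For BF10 minus IL-10-Fc they were Krt18 (-0.0302) and Krt7 (-0.0018) with median-of-ratios size factors and Krt80 (-0.27) with the FPKM sum as covariate. For aCSF1R minus Ctrl-IgG, the FPKM sum as covariate gave -0.13 for Krt18, -0.13 for Krt19 and -0.28 for Krt80, and quantile normalization gave -0.0686, -0.039 and -0.0236. Without the 3 libraries with stratified keratin RNA, Krt8 was 0.0442, Krt18 -0.0622 and Krt23 -0.0213. Leaving out single libraries gave -0.0233 to 0.0461 for Krt18, -0.0194 to 0.106 for Krt19 and -0.53 to 0.73 for Krt80.

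The median log2 difference of Krt8, Krt18, Krt7 and Krt19 was 7.92 in BF10 against Ctrl-IgG, 7.31 in IL-10-Fc against Ctrl-IgG and 8.01 in BF10 against aCSF1R. It was 10.1, 9.52 and 10.6 with a pseudocount of 0.1, which enlarges differences from values near 0 by construction, and 8.33 and 8.44 in the contrasts of BF10 with Ctrl-IgG and aCSF1R after rescaling to TPM. Leaving out single libraries gave 7.71 to 8.10, 6.91 to 7.60 and 7.80 to 8.19.

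Genes called over the 7 partner lists numbered 20 in BF10 against Ctrl-IgG, 16 in IL-10-Fc against Ctrl-IgG and 18 in BF10 against aCSF1R. With a mean of at least 5 FPKM, which tests fewer genes, they numbered 11, 8 and 9, and with the FPKM sum as covariate 32, 33 and 31. The first count was 13 after rescaling to TPM. The second was 25 with median-of-ratios factors, 26 with quantile normalization and 10 in the 2 groups alone. That of BF10 against aCSF1R was 7 without the 3 libraries with stratified keratin RNA, which leaves aCSF1R with 1 library, assumed to vary like the other groups. Leaving out single libraries gave 12 (without BF10 replicate 2) to 24, 12 to 25 (the last without IL-10-Fc replicate 3) and 11 (when BF10 replicate 2 or aCSF1R replicate 2 was left out) to 29 (without Ctrl-IgG replicate 3). The first count was 13 without Ctrl-IgG replicate 1, Ctrl-IgG replicate 2 or BF10 replicate 3. The difference in Krt8 over Krt18 between BF10 and IL-10-Fc, 0.204, was 0.126 to 0.322 without single libraries. No paired analysis was possible because the labels give no replicate numbers, and the groups of each comparison have at most 1 number in common in either part of their title codes, whose meaning is not given.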
